A study of Mus musculus with 2 samples.

Results

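The 9 genes named for secretion by the choroid plexus, Ttr, Folr1, Kcnj13, Clic6, Kl, Otx2, Aqp1, Slc4a5 and Slc12a2, were followed through single-cell RNA-seq of mouse hippocampus. They were chosen by name, as 9 of the 24130 genes of the count matrices, and all 9 were found. Their unique molecular identifiers (UMIs, each standing for 1 captured transcript) were summed by library and by cell type. Ttr was also read as a measure of free RNA, the RNA of broken cells that enters the droplets of other cells.

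The study had 2 libraries, 1 per group, both from male C57BL/6 mice that the labels give as 6 months old, although the titles call the brain aged. Saline was given to the mice of the control library. Mice of the EMF_AuNPs library had gold nanoparticles (AuNPs) injected into the hippocampus and were then kept between Helmholtz coils, a source of an electromagnetic field (EMF), with an exposure of 3 weeks. The design text states that the same pair of coils served both groups and does not make plain whether the saline mice were exposed to the field. The number of mice per library is not given in the sources used here. Tissue was dissociated with papain and libraries followed the 10x protocol. A single library per group leaves no replicate spread to hold a difference against, so no test was made. Each interval is a 95% interval of counting error alone. A gene is called higher or lower where its levels in the libraries differ by at least 1.5-fold. Nanoparticles, field, surgery, dissection and library cannot be told apart in this contrast.

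The choroid plexus is a folded epithelium inside the brain ventricles that makes cerebrospinal fluid. Its cells move sodium, chloride, bicarbonate and water across their apical membrane, and they load the fluid with carrier proteins, vitamins and hormones. The hippocampus itself holds no choroid plexus, but the plexus of the lateral ventricle lies along it and can be taken with it at dissection. Among the members, Ttr encodes transthyretin, the carrier of thyroid hormone and retinol-binding protein in the fluid. Slc12a2 encodes the sodium-potassium-chloride cotransporter NKCC1, Slc4a5 a sodium bicarbonate cotransporter, Aqp1 a water channel, Kcnj13 the inward rectifier potassium channel Kir7.1 and Clic6 a chloride intracellular channel protein. Folr1 encodes a folate receptor that carries folate into the fluid, Kl encodes Klotho, a coreceptor of fibroblast growth factor 23 that is also shed, and Otx2 encodes a homeodomain transcription factor needed for the development of the tissue.

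In RefSeq coordinates of GRCm38, the assembly also called mm10, Kcnj13 spans chr1:87384577-87394729 on the minus strand, Kl chr5:150952607-150993817 on the plus strand and Folr1 chr7:101858331-101870788 on the minus strand. Aqp1 spans chr6:55336299-55348555 and Slc4a5 chr6:83207580-83304945, both on the plus strand. Otx2 spans chr14:48656781-48667644 on the minus strand and Clic6 chr16:92498147-92541241 on the plus strand. In GENCODE M21 Kcnj13 overlaps Gigyf2, Folr1 overlaps Anapc15 and Otx2 overlaps Otx2os1, each on the opposite strand, and Clic6 overlaps 2410124H12Rik on its own strand. Whether the counting used strand is not given in the sources used here, so UMIs of these pairs may not be fully separated.

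RefSeq promoter entries of GRCm38.p6 were matched for 5 members, with 8 entries in all. No entry was matched for Folr1 and Clic6. Ttr and Slc12a2 were left out of the matching by choice, so whether they have an entry was not read. No window is therefore shown for Slc12a2 or Clic6, the members with the highest ratios. The 250 bases before the start site are shown for Kcnj13 and Kl, members whose level in choroid plexus cells differed between the libraries by at least 1.5-fold, and for the first start site of Otx2, the transcription factor among them. Capitals mark TATAAA, searched on the gene's own strand. The windows shown lie in chr1:87394730-87394979 (minus strand), chr5:150952357-150952606 (plus strand) and chr14:48667645-48667894 (minus strand), and overlap no annotated exon. That of Slc4a5, which also differed by at least 1.5-fold, overlaps an annotated exon and is not shown.
Kcnj13: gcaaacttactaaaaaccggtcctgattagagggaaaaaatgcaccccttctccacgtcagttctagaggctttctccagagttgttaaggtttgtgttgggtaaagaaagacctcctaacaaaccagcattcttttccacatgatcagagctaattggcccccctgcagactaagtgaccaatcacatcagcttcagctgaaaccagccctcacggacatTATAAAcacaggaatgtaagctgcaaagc
Kl: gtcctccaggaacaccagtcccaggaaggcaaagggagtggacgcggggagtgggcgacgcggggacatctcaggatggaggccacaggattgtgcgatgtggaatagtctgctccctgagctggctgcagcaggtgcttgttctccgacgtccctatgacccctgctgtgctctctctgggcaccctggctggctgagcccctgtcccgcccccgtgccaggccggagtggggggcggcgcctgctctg
Otx2: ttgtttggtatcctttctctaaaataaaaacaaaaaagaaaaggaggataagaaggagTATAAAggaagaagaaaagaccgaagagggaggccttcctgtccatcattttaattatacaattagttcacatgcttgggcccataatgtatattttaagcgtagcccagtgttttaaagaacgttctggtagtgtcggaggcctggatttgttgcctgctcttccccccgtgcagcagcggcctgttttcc
In Kcnj13 the match lies 29 to 24 bases before the start site, and in Otx2 it lies 192 to 187 bases before it. TATAAA stood in 2 of the 8 entries and in 7.59% of all 32851 promoters in windows of 250 bases. Of the 8 entries, 4 were start sites of Otx2, and the windows of 2 of these overlap. The entries are thus not separate genes, and their share is not read against that of all promoters. The letters TAATCC, which Otx-type homeodomain proteins bind, were searched on both strands. They stood in 1 of the 8 entries, another start site of Otx2, and in 6.25% of all promoters. A match describes the letters of the window only.

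Cells were typed by a gate on marker genes that held none of the members. A barcode was assigned to a cell type when at least 3 different markers of that type were seen and these held at least 70% of all its marker UMIs. Red blood cells were barcodes with at least 20% haemoglobin UMIs. There were 21583 control barcodes, with 51091452 UMIs in all, and 7003 EMF_AuNPs barcodes, with 19544686 UMIs in all. Barcodes with markers of several types, 31.9% of the control and 35.1% of the EMF_AuNPs library, stayed out of the cell types. Choroid plexus-gated cells numbered 404 in the control library and 126 in the EMF_AuNPs library, with medians of 12729 and 14606 UMIs. With them, 6 other types with at least 20 cells in each library were compared: oligodendrocyte, astrocyte, endothelial, microglia, mural and red blood cell. Barcode sequences found in both libraries numbered 38, of which 1 lay in a control and 2 in EMF_AuNPs choroid plexus cells.

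The gate fixes that its own markers are high and those of other types low, so these levels describe the cells and do not check their label. All 11 choroid plexus markers present in the matrix were seen in both libraries, at a summed 8199 CPM (counts per 1e6 UMIs of the cell type) in the control and 9125 CPM in the EMF_AuNPs cells. Sostdc1, a secreted regulator of BMP and Wnt signalling, stood at 1460 CPM in the control and 1461 CPM in the EMF_AuNPs cells. Prlr, the prolactin receptor, stood at 1120 CPM and 2124 CPM. Markers of other types were present at low levels. The 10 ependymal markers summed to 512 CPM and 540 CPM, against 19159 CPM and 18658 CPM in ependymal-gated cells. Of the 7 fibroblast markers, 4 were seen in the control and 2 in the EMF_AuNPs cells, at 24.2 CPM and 19.2 CPM. Haemoglobin genes summed to 702 CPM in the control and 1591 CPM in the EMF_AuNPs choroid plexus cells. Malat1, a nuclear RNA, stood at 9528 CPM and 6240 CPM. The part of these differences in the results below was not tested.

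Transthyretin RNA was the main content of the choroid plexus cells. Ttr (chr18:20664209-20674326, plus strand) took 42.0% of all their UMIs in the control library and 34.3% in the EMF_AuNPs library, that is 420130 CPM (419567 to 420693) and 343389 CPM (342539 to 344241). The log2 ratio of EMF_AuNPs over control was -0.29, short of 1.5-fold. The median cell held 4929.5 Ttr UMIs in the control library and 4918 in EMF_AuNPs. The same cells held medians of 7354 and 9478.5 UMIs of other genes. The libraries thus differed in the share of Ttr while the median number of Ttr UMIs per cell was nearly the same.

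Among the ion and water transporters, Slc12a2 (chr18:57878512-57946821, plus strand) had the highest ratio of the 9 members. Its level in choroid plexus cells was 296 CPM (281 to 311) in the control library and 880 CPM (837 to 924) in the EMF_AuNPs library, with a log2 ratio of 1.57 (1.47 to 1.68). Slc4a5 stood at 184 CPM and 291 CPM, which is a log2 ratio of 0.66 (0.50 to 0.81). Both cotransporters were therefore higher in the EMF_AuNPs library, with counting intervals of level that did not overlap. Aqp1, the water channel, stood at 109 CPM (99.8 to 118) and 147 CPM (130 to 166), which is a log2 ratio of 0.43 (0.22 to 0.65), short of 1.5-fold.

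The channel genes were both higher in the EMF_AuNPs library. Kcnj13 stood at 696 CPM (673 to 719) in the control and 1182 CPM (1132 to 1233) in the EMF_AuNPs choroid plexus cells, which is a log2 ratio of 0.76 (0.69 to 0.84). Clic6 stood at 263 CPM (249 to 278) and 671 CPM (634 to 710), which is a log2 ratio of 1.35 (1.24 to 1.46). Klotho, which is both a membrane coreceptor and a shed protein, was higher as well: Kl stood at 448 CPM (430 to 467) and 863 CPM (821 to 907), which is a log2 ratio of 0.94 (0.85 to 1.04). Folr1, the folate receptor gene, stood at 989 CPM (962 to 1017) and 1071 CPM (1024 to 1120), which is a log2 ratio of 0.11. Otx2 stood at 213 CPM (201 to 226) and 277 CPM (253 to 302), which is a log2 ratio of 0.37. Neither Folr1 nor Otx2 reached 1.5-fold.

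In all, 5 of the 9 members were higher and 0 were lower in the EMF_AuNPs choroid plexus cells. The background was high: of the 7471 genes with at least 50 UMIs in these cells, 31.4% were higher and 4.00% lower. Over these 7471 genes the median log2 ratio was 0.35. All members were well counted (the least, Aqp1, had 553 and 268 UMIs), so the background was also taken over the 809 genes with at least 800 UMIs, a limit chosen after the values were seen. Of these, 14.2% were higher and 3.34% lower, with a median log2 ratio of 0.11. The share of higher members, 5 of 9, stood above both backgrounds. Of the 7471 genes, 99.3% had a log2 ratio at or below that of Slc12a2 and 97.6% at or below that of Clic6, against 31.8% for Folr1 and 52.7% for Otx2.

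**Figure D1:**
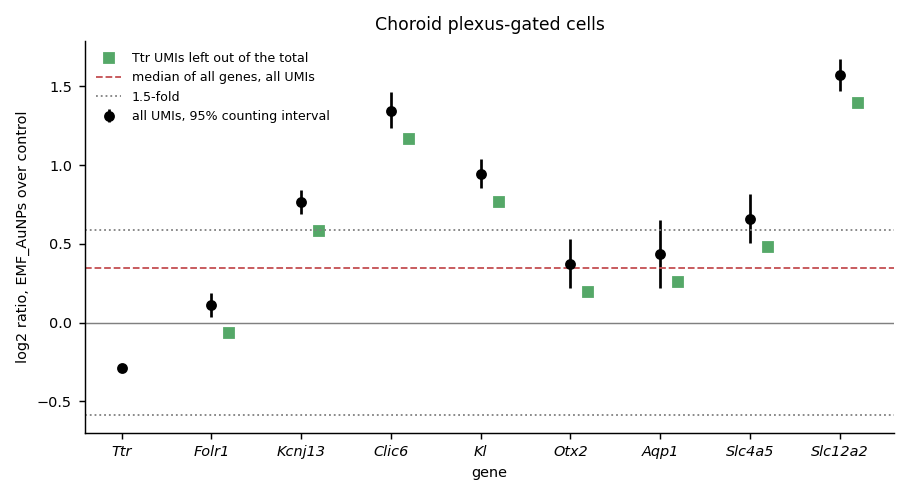
Log2 ratio of EMF_AuNPs over control for each member in choroid plexus-gated cells (black points with 95% counting intervals), with Ttr UMIs left out of the totals as green squares. Dotted lines mark 1.5-fold and the dashed line the median of all genes, 0.35. Slc12a2, Clic6 and Kl lie above the upper dotted line on both scales, and Ttr alone lies below 0 when all UMIs are counted.

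Because Ttr fills so much of these cells, its share sets the scale of every other gene. With Ttr UMIs left out of the totals, 3 members were higher, Slc12a2 at a log2 ratio of 1.39, Clic6 at 1.17 and Kl at 0.77. Kcnj13 came to 0.58, just under the limit, and Slc4a5 to 0.48. Folr1 changed sign, from 0.11 to -0.06. On this scale the median of all genes was 0.18, and of 7470 genes 21.3% were higher and 7.10% lower. Measured against the median of all genes, the same 3 members were higher, and 1, Ttr, was lower with a log2 ratio of -0.64. On that scale 12.6% of the 7471 genes were higher and 12.3% lower.

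Cells of the same gate varied widely in their Ttr content. The Ttr share ranged from 6.15% to 73.3% of a cell's UMIs in the control library, with a median of 42.7%. In the EMF_AuNPs library it ranged from 10.2% to 58.6%, with a median of 34.6%. The ranges overlapped over most of their length. All 9 members were seen together in 199 control cells (49.3%) and 95 EMF_AuNPs cells (75.4%), at unequal depths.

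**Figure D2:**
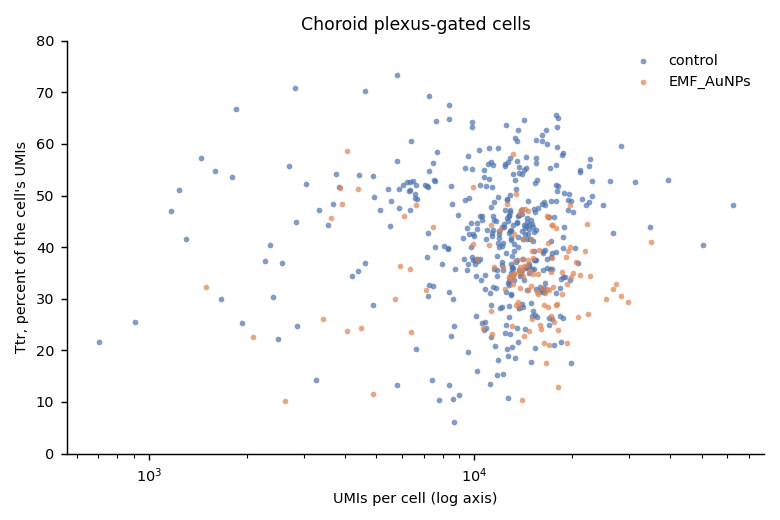
Ttr as a percentage of each choroid plexus-gated cell's UMIs (vertical) against the cell's UMIs (horizontal, log axis), 1 point per cell, 404 control and 126 EMF_AuNPs cells. Control cells reach 73.3% and EMF_AuNPs cells 58.6%, with medians of 42.7% and 34.6%.

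At an equal total of UMIs per cell, Slc12a2, Clic6 and Kl were seen in a larger share of EMF_AuNPs than of control choroid plexus cells, with intervals that did not overlap. These intervals take the cells of a single library per group as the sample. They do not cover the spread between mice or libraries, so whether they overlap is no test of a difference between the groups. Each cell was thinned to 1000 UMIs, which left out 2 control cells and 0 EMF_AuNPs cells. A mean of 420 of these UMIs in control and 345 in EMF_AuNPs cells were Ttr. Fewer UMIs of other genes were thus left in control cells, and the shares carry this difference. Slc12a2 had a UMI in 23.4% of thinned control (19.3% to 27.8%) and 52.4% of thinned EMF_AuNPs choroid plexus cells (43.3% to 61.3%). Unthinned, the shares were 89.4% and 96.8%. Clic6 was seen in 23.9% and 49.2% of thinned cells (85.9% and 96.0% unthinned). Kl was seen in 35.8% and 57.9% of thinned cells (384 of 404 and 124 of 126 cells unthinned), and Kcnj13 in 49.5% (44.5% to 54.5%) and 58.7% (49.6% to 67.4%), with 97.5% and 99.2% unthinned. Folr1, in 64.7% and 60.3% of thinned cells, also had overlapping intervals (99.5% and 99.2% unthinned). The intervals of Otx2, Slc4a5 and Aqp1 overlapped as well. Aqp1, in 10.2% and 8.73% of thinned cells (66.8% and 82.5% unthinned), went against its CPM, and no order is read from it. Microglia, which serve as a type that should lack these genes, had medians of 1571 and 2326 UMIs. Their thinned shares were 1.87% and 2.42% for Folr1, 0.110% and 0.242% for Clic6, 0.659% and 0.242% for Kl, and 2.25% and 0.969% for Kcnj13.

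Splitting the control cells by Ttr share into 3 groups of 134 or 135 cells gave a description of how the members varied together. Levels were taken over UMIs other than Ttr, and no test was made, since the split and the levels come from the same cells. From the lowest to the highest Ttr group, Folr1 went from 1175 over 1675 to 2548 CPM and Kcnj13 from 896 over 1253 to 1590 CPM. Clic6 ran the other way, from 543 over 443 to 334 CPM, as did Otx2, from 408 over 374 to 299 CPM, and Slc12a2, from 589 over 486 to 420 CPM. In the EMF_AuNPs library, in 3 groups of 42 cells, Folr1 went from 1186 over 1684 to 2184 CPM and Otx2 from 488 over 415 to 339 CPM. Clic6 stood at 1175, 927 and 928 CPM in these groups. Slc12a2 had no steady order there, with 1509, 1125 and 1377 CPM. In each of the 3 groups Slc12a2 was above its control level.

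Outside the choroid plexus cells the members parted into 8 genes and Slc12a2. Of all UMIs of a gene in the control library, 76.0% of Ttr, 73.3% of Folr1, 73.1% of Kcnj13, 78.4% of Clic6, 81.3% of Kl, 74.9% of Otx2, 74.7% of Aqp1 and 79.5% of Slc4a5 lay in the 404 choroid plexus-gated cells, 1.87% of the barcodes. In the EMF_AuNPs library these shares lay between 77.0% for Ttr and 88.0% for Slc4a5. For Slc12a2 they were 12.6% (12.0% to 13.2%) and 28.2% (27.0% to 29.4%). Barcodes with markers of several types held most of the rest of the Ttr, 14.5% and 15.2% of its UMIs. Of that Ttr, 67.5% and 75.9% lay in the 254 and 113 mixed barcodes with at least 3 choroid plexus markers.

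**Figure D3:**
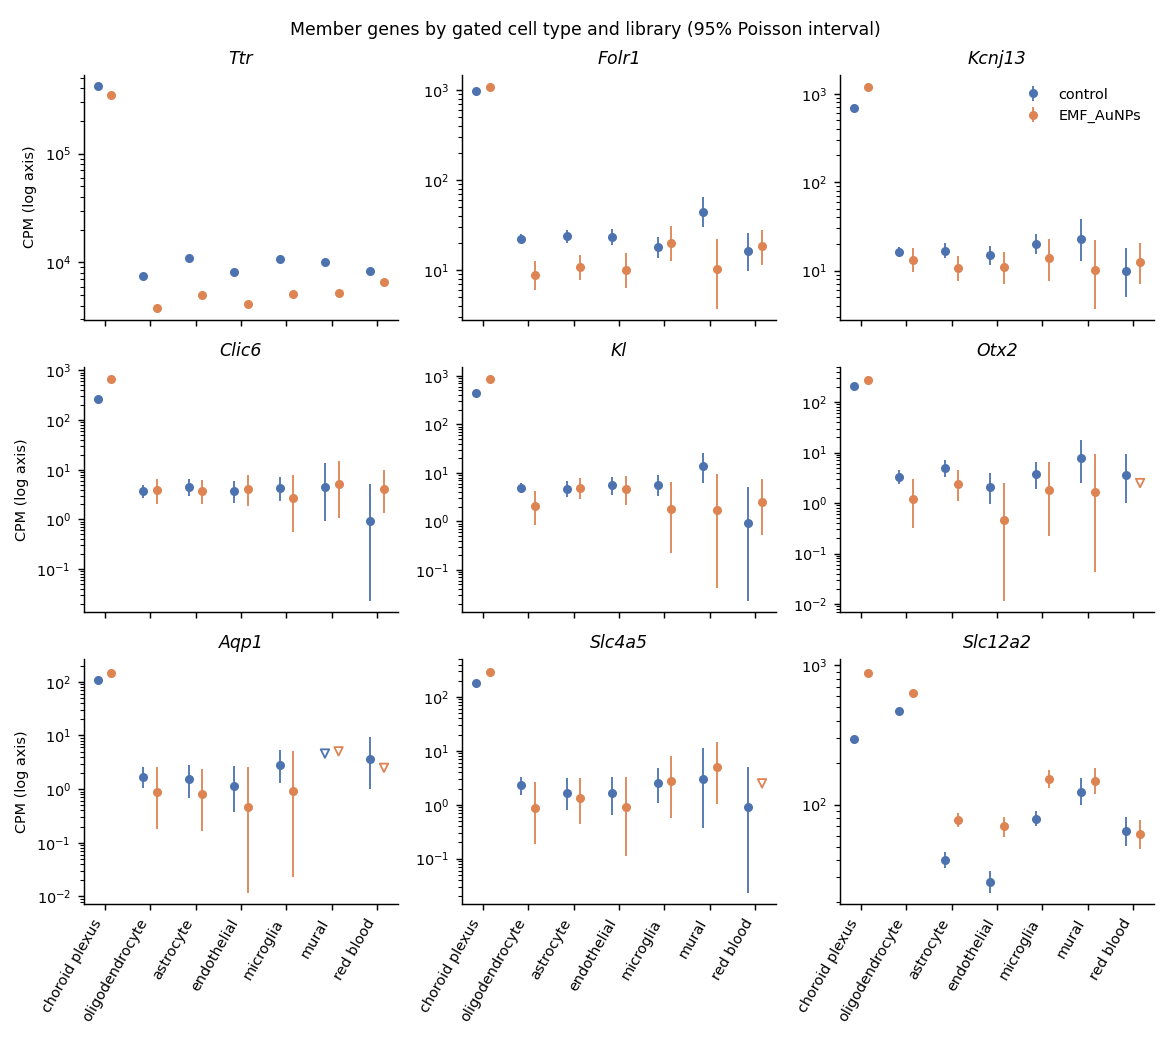
CPM (log axis, its range set for each gene) of the 9 members by gated cell type and library, with 95% Poisson intervals; open triangles stand at the level that 3 counts would give where 0 UMIs were seen. All but Slc12a2 are highest in choroid plexus cells by a wide margin, while Slc12a2 in the control is higher in oligodendrocytes, at 471 CPM, than in choroid plexus cells, at 296 CPM.

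Ttr was seen in nearly every barcode of every type. Over the 13663 control barcodes of the other 6 types the median was 17 Ttr UMIs, and over the 4287 EMF_AuNPs barcodes it was 11, with 1 barcode without Ttr in each library. Medians by type lay between 16 in microglia and 18 in red blood cells in the control library, and between 10 in astrocytes and 12 in oligodendrocytes in the EMF_AuNPs library. The types thus differed little within a library. The ratio of the library medians was 0.647.

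**Figure D4:**
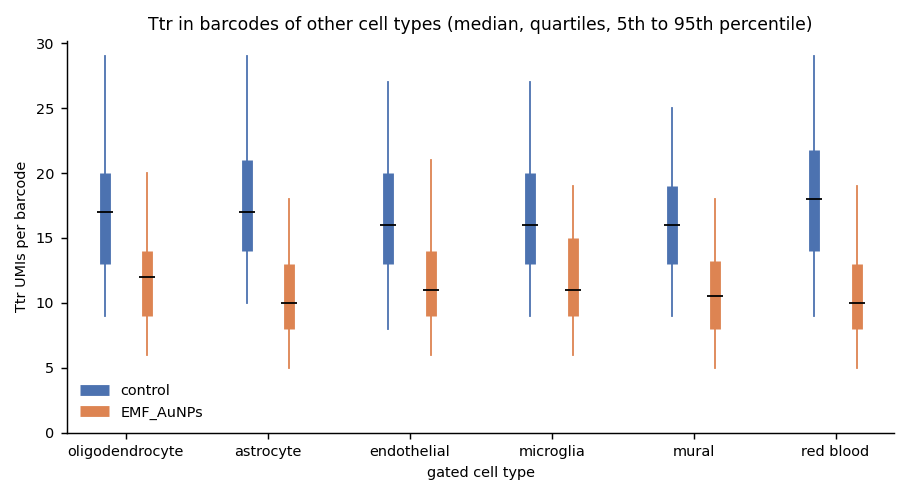
Ttr UMIs per barcode in the 6 other gated cell types; black marks are medians, thick bars the quartiles and thin lines the range from percentile 5 to percentile 95. The types of 1 library have nearly the same median, 16 to 18 in the control and 10 to 12 in the EMF_AuNPs library.

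The number of Ttr UMIs rose less than the depth of the barcode. Control barcodes of 500 to 1000 UMIs had a mean of 15.5 Ttr UMIs, and those of 2000 to 5000 UMIs a mean of 19.5. In the EMF_AuNPs library the means were 9.94 and 14.0. Barcodes of 5000 to 10000 UMIs, 387 and 274 in number, had means of 29.4 and 20.5. The share of Ttr therefore fell with depth, from 2.14% over 0.707% to 0.473% of UMIs in control barcodes and from 1.24% over 0.435% to 0.324% in EMF_AuNPs barcodes. Median depth of these barcodes was 1921 UMIs in the control library and 2680 in EMF_AuNPs, so a CPM of Ttr outside the choroid plexus carries both differences. In astrocytes, for example, Ttr stood at 10915 CPM and 4985 CPM, with 18.8 and 12.6 UMIs per barcode.

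If all member UMIs outside the choroid plexus came from the same free RNA, each would stand to Ttr as it does in choroid plexus cells. Over the 6 other types pooled, Folr1 had 648 control UMIs where Ttr gave 592, a ratio of 1.10 (1.01 to 1.19), and Kcnj13 had 477 where Ttr gave 416, a ratio of 1.15 (1.04 to 1.26). In the EMF_AuNPs library the ratios were 0.79 (0.67 to 0.94) and 0.74 (0.62 to 0.87). Both genes thus followed Ttr to within about 1.5-fold. Aqp1 was at 0.77 (0.56 to 1.03) and 0.33 (0.14 to 0.65), and Otx2 at 0.81 (0.66 to 1.00) and 0.37 (0.21 to 0.59). Clic6 was at 0.70 and 0.42, Slc4a5 at 0.54 and 0.33, and Kl at 0.54 and 0.28, with every interval below 1. Over the pooled types, 7 of the 8 members other than Ttr had no UMIs in excess of about 1.15 times what Ttr gave. Single types differed in the control: Folr1 stood at 1.87 (1.25 to 2.68) in mural cells and 0.71 (0.54 to 0.93) in microglia. For all 7 the pooled ratio of UMIs seen to UMIs expected was lower in the EMF_AuNPs library than in the control. The expected UMIs rest on each library's own choroid plexus cells, so a lower ratio is not a lower level per Ttr UMI.

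**Figure D5:**
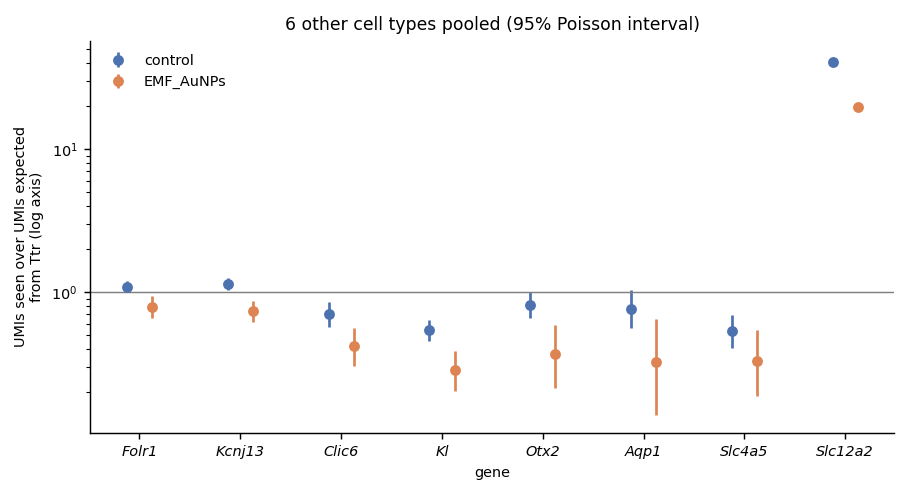
UMIs seen over UMIs expected from Ttr (log axis) for the other 8 members, summed over the 6 other cell types, by library. Bars are 95% conditional binomial intervals, which the figure title calls Poisson. All but Slc12a2 lie between 0.28 and 1.15, and Slc12a2 lies at 40.6 in the control library and 19.8 in EMF_AuNPs.

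Slc12a2 did not follow Ttr. It had 7178 control UMIs in the other types where Ttr gave 177, a ratio of 40.6 (38.4 to 43.0), and 2913 where Ttr gave 147 in the EMF_AuNPs library, a ratio of 19.8 (18.7 to 21.1). Most lay in oligodendrocytes, the myelin-forming cells, with 6410 and 2140 UMIs. There the gene stood at 471 CPM in the control library and 632 CPM in EMF_AuNPs, a log2 ratio of 0.42 that fell short of 1.5-fold, where 8.28% of 10631 genes were higher. A UMI of Slc12a2 was left in 37.0% of control oligodendrocytes and 45.7% of EMF_AuNPs oligodendrocytes after thinning to 1000 UMIs (63.8% and 84.7% unthinned). Red blood cells had a Slc12a2 UMI in 3.92% and 4.93% of thinned barcodes (12.1% and 10.8% unthinned). Their medians were 2075 and 1983 UMIs against 2330 and 3432 in oligodendrocytes. Red blood cell barcodes also held more Slc12a2 UMIs than Ttr gave, in both libraries.

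In the remaining types Slc12a2 was sparse. Microglia stood at 79.3 and 153 CPM, a log2 ratio of 0.94, where 9.17% of genes were higher. Astrocytes stood at 40.2 and 78.2 CPM, also a log2 ratio of 0.94, where 17.2% of genes were higher. Endothelial cells stood at 28.0 and 69.7 CPM, a log2 ratio of 1.29, where 12.0% of genes were higher. Mural cells, the pericytes and smooth muscle of vessels, stood at 124 and 148 CPM, short of 1.5-fold, where 13.6% of genes were higher. Red blood cell barcodes held 0.156 and 0.153 Slc12a2 UMIs each, while astrocytes held 0.0691 and 0.198 and endothelial cells 0.0603 and 0.217. The control levels of astrocytes and endothelial cells were thus below those of red blood cell barcodes, and those of EMF_AuNPs above them. After thinning, 3.08% and 2.26% of control cells had a UMI against 3.92%, and 7.38% and 6.36% of EMF_AuNPs cells against 4.93%. Whether red blood cells lack the gene was not tested, so they do not set a background level. Free RNA was not separated from expression in astrocytes and endothelial cells, so their ratios are not read as a difference in expression. Microglia held 0.131 and 0.368 UMIs each, also below the red blood cell barcodes in the control, although after thinning 7.47% of control microglia (6.31% to 8.78%) and 15.3% of EMF_AuNPs microglia (11.9% to 19.1%) had a UMI, against 12.1% and 28.4% unthinned. Barcodes of these types were also deeper in the EMF_AuNPs library, with medians of 2366.5 against 1428 UMIs in astrocytes and 2421 against 1695.5 in endothelial cells.

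Ependymal cells, the ciliated lining of the ventricles and neighbours of the choroid plexus, held more of some members than Ttr gave. Only 43 control and 12 EMF_AuNPs barcodes passed the gate, so this result, singled out after the values were seen, is given for few cells. Folr1 had 79 UMIs where Ttr gave 2.59 in the control, and 33 where it gave 0.555 in the EMF_AuNPs library. Otx2 had 19 UMIs against 0.558 and 9 against 0.144. Clic6 had 7 against 0.688 and 4 against 0.348, whereas Kcnj13 had 0 in both libraries. With a looser gate, at least 50% of marker UMIs, 120 and 48 ependymal barcodes gave 247 and 296 CPM of Folr1, 63.8 and 46.9 CPM of Otx2, and 15.1 and 3.61 CPM of Kcnj13. Folr1 and Otx2 thus stood above the level given by Ttr at both gates and in both libraries.

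Other genes of secretion were taken from lists of transporters, channels, secreted proteins, junctions, transcription factors and receptors of the tissue. Of 80 listed genes, 61 had at least 50 UMIs in choroid plexus cells, and 25 of these were higher and 0 lower in the EMF_AuNPs library. Their median log2 ratio was 0.46, beside 0.35 over all genes, of which 31.4% were higher. Taken against the median of all genes, 8 of the 61 were higher and 2 lower, where 12.6% of all genes were higher and 12.3% lower. On that scale the share of higher list genes is near the background.

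Chloride cotransport and its kinases, the list closest to Slc12a2, had 5 of 6 counted genes higher. Slc12a4, a potassium chloride cotransporter, stood at 60.3 and 109 CPM (log2 ratio 0.84), and Wnk1, a kinase that acts on these cotransporters through Stk39 and Oxsr1, at 87.6 and 143 CPM (0.70). Stk39 itself, at a log2 ratio of 0.39, was the gene of the list that fell short. Bicarbonate and proton transport had 3 of 4 higher, among them Slc4a10, a sodium bicarbonate transporter, at 224 and 445 CPM (0.99), and Slc9a3r1, a scaffold of apical transporters, at 45.8 and 80.6 CPM (0.80). The sodium potassium pump, which drives secretion, had 1 of 5 higher. Its subunit genes Atp1b1, at 782 and 1077 CPM (0.46), and Atp1b3, at 179 and 240 CPM (0.42), fell short of 1.5-fold. Neither of the 2 counted carbonic anhydrases was higher, with Car14 at 141 and 183 CPM (0.38).

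Channels had 1 of 6 higher, the cation channel gene Trpm3 at 339 and 658 CPM (0.95), with the chloride transporter gene Clcn3 at 56.8 and 82.8 CPM (0.54). Carriers of vitamins, thyroid hormone, metals and organic anions had 5 of 13 higher. Among them were Slc23a2, which carries ascorbate, at 131 and 250 CPM (0.93) and Slc31a1, which carries copper, at 264 and 427 CPM (0.69). Secreted proteins had 5 of 10 higher, among them the growth factor gene Bmp7, at 28.9 and 64.7 CPM (1.14), and the protease inhibitor gene Spint2, at 210 and 420.2 CPM (0.99). Tight junctions had 2 of 6 higher, Cldn1 at 25.5 and 59.8 CPM (1.20) and Ocln at 18.9 and 43.9 CPM (1.18). Transcription factors had 2 of 4 higher, among them Rfx3, a regulator of ciliary genes, at 23.0 and 42.2 CPM (0.85), while Lmx1a stood at 14.7 and 20.8 CPM (0.47). Receptors had 1 of 5 higher, and the serotonin receptor gene Htr2c stood at 321 and 437 CPM (0.44).

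The genes most like each member were named by the Pearson correlation of log2(CPM + 1) over 14 profiles, 7 cell types in each of 2 libraries. The profiles of a library share its free RNA and depth, and the coefficients are descriptive. Choroid plexus cells give only 2 of the 14 profiles. Genes high in these and low in the rest correlate strongly for that reason alone, so r does not show shared regulation. Wfdc2, a secreted protein of epithelia, led for Ttr (r = 0.99), Folr1 (r = 0.99) and Kcnj13 (r = 0.99). Slc4a10 led for Clic6 (r = 0.99), C230072F16Rik for Kl (r = 0.99), Nsg2 for Otx2 (r = 0.97), Epn3 for Aqp1 (r = 0.98) and Ins2 for Slc4a5 (r = 0.98). Among the members, Ttr correlated with the other choroid plexus genes between r = 0.95 for Slc4a5 and r = 0.99 for Folr1. Slc12a2 stood apart at r = 0.45 with Ttr, and the gene most like it was Lpgat1, at r = 0.93.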

How the data were processed

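Whole-number counts of UMIs per gene and barcode, not normalised, were deposited by the authors, who used Cell Ranger 3.0.2 with STAR and the mm10 build, per the submitters' processing notes. The sources used here do not give the annotation or the STAR version. Total counts were 51091452 UMIs (control) and 19544686 UMIs (EMF_AuNPs), and the lowest barcode held 500 UMIs. Members, gate markers, lists and the rule for named genes (all members, the 3 genes most like each among genes of at least 200 UMIs, and the 2 largest absolute ratios of each list among genes at no less than 20% of their highest type) were chosen with earlier results of these data known.

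Barcodes were gated on 135 of 140 listed markers of 16 types (5 were not matched in the matrix). No doublet caller was run: mixed barcodes were kept out, while doublets of like cells remain. UMIs were summed per type and library and scaled to a total of 1e6 (CPM). The log2 ratio has 1 CPM added. Intervals are exact Poisson for CPM, Clopper-Pearson for shares and conditional binomial for ratios, including UMIs seen over expected. Thinning drew 1000 UMIs per cell without replacement (seed 1). UMIs expected from Ttr are a member's choroid plexus CPM times the ratio of Ttr between the 2 types. The script that computes the ratios was run on simulated counts with known fold changes as a check of the code. Python 3.11.15, numpy 2.4.6 and scipy 1.17.1 were used. Alternatives changed the gate, the depth limits, the CPM scale, the CPM added and the list minimum.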

Additional observations from a re-analysis of the deposited data

Results flagged for a closer look

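For 2 members the library ratio went opposite ways in choroid plexus cells and in another type, each past 1.5-fold. Beside this count, 31.4% of 7471 genes were higher in choroid plexus cells, while 902 of 10349 were lower in astrocytes and 1005 of 10631 in oligodendrocytes. Genes that did both were not counted. Kcnj13 had a log2 ratio of 0.76 in choroid plexus cells and -0.60 (-1.21 to -0.105) in astrocytes, where it had 100 control and 40 EMF_AuNPs UMIs. Kl had a log2 ratio of 0.94 in choroid plexus cells and -0.93 (-2.60 to -0.106) in oligodendrocytes, where it had 66 and 7 UMIs. The difference between the types was not tested, since each library is the only one of its group. Beside these values, the ratio of Ttr was -1.13 in astrocytes and -0.95 in oligodendrocytes, and UMIs seen over those expected from Ttr were 0.93 (0.76 to 1.14) and 0.63 (0.45 to 0.86) for Kcnj13 in astrocytes, and 0.61 (0.47 to 0.78) and 0.21 (0.086 to 0.44) for Kl in oligodendrocytes.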

How the results depend on the processing

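With 1 library per group, leaving out a replicate was not possible. No paired analysis was possible because each group has 1 library. The count of 5 higher members stayed within 1.5 times under every gate and depth setting and with 10 CPM added or cells weighted equally. It fell to 3 with Ttr UMIs left out of the totals and to 3 when centred on the median of all genes, where 1 member was lower. Under the strictest gate, 90% of marker UMIs, which kept 28 control and 5 EMF_AuNPs choroid plexus cells, 1 member was lower, Ttr at a log2 ratio of -0.66, and Otx2 and Aqp1 joined the higher ones at 1.11 and 0.79. List genes came to 8 higher and 2 lower when centred. Over all settings run, the log2 ratio lay between 1.23 and 2.69 for Slc12a2, 1.00 and 1.96 for Clic6, 0.60 and 1.62 for Kl, and 0.42 and 1.11 for Kcnj13. Restricting to choroid plexus cells of 8000 to 20000 UMIs (307 and 92 cells) and leaving out shared barcodes, both chosen after seeing the data, left 5 higher. Depth limits members outside the choroid plexus: Aqp1 had 50 control and 8 EMF_AuNPs UMIs over the 6 other types.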
